A study of Oncorhynchus mykiss with 18 samples.

Results

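Meiotic DNA double-strand break (DSB) hotspots were compared between the testes of 2 rainbow trout, RT-52 and TAC-1, which carry 1 *Prdm9* allele in common. All peaks of both lists were taken, 1924 for RT-52 and 616 for TAC-1, or 2540 of the 2749 DMC1 hotspots of the study. The remaining 209 hotspots are those of another fish, TAC-3, and were used only for reference. The question was how far hotspot positions, density, width and relative strength differ between these fish.

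In many vertebrates, the zinc finger protein PRDM9 chooses where meiotic recombination starts. It binds a DNA motif set by its zinc finger allele, and its methyltransferase domain places H3K4me3 and H3K36me3 on the neighbouring nucleosomes. The DSBs made there are resected to single-stranded ends that are covered by the strand exchange protein DMC1, and sequencing of the single-stranded DNA precipitated with DMC1 (DMC1-SSDS) therefore maps hotspots.

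Testes of male fish of the INRA-AUT strain were used. RT-52 carries *Prdm9* alleles 1 and 2 and was at maturation stage IV, whereas TAC-1 carries alleles 1 and 5 and was at stage III. TAC-3, also at stage III, carries alleles 2 and 6. Both TAC-1 DMC1 replicates were precipitated with the rabbit antibody DMC1-R1. For RT-52, this antibody was used in 1 replicate, and the guinea pig antibody DMC1-GP in the other. H3K4me3 and H3K36me3 peaks were obtained from TAC-1 and TAC-3, and none were used from RT-52. Each genotype is represented by 1 fish, and the 2 replicates of a fish were merged into 1 list, so that no spread between replicates could be computed and no test was possible. Fish, genotype, stage, antibody and any difference in read depth cannot be told apart. Values are therefore given with 95% intervals that cover counting error over hotspots or chromosomes only, by the Wilson method for shares, the exact Poisson method for counts, order statistics for medians and Fisher's z for correlations. Neighbouring hotspots and chromosomes are not independent replicates, and correlations are descriptions. Positions refer to the USDA_OmykA_1.1 assembly.

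RT-52 had more hotspots than TAC-1 on each of the 32 chromosomes, and both fish had their highest density on the same chromosome, Y. On chromosomes, 1869 RT-52 and 595 TAC-1 hotspots were placed, which gave 0.837 (0.7997 to 0.876) and 0.267 (0.246 to 0.289) hotspots per Mb and a ratio of 3.14. The other 55 and 21 hotspots lay on unplaced scaffolds. The authors wrote that cell composition, which changes with testis stage, may underlie differences in peak number between samples. This was not tested here. Chromosome length was taken as the last position of a gene or peak and ran from 41.8 to 103.8 Mb.

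Longer chromosomes tended to hold more hotspots but fewer per Mb. The number of hotspots per chromosome and chromosome length had a Spearman's rho of 0.34 (−0.01 to 0.62, n = 32 chromosomes) in RT-52 and 0.57 (0.28 to 0.77) in TAC-1. The RT-52 interval included 0. It did not without Y, at 0.41 (0.06 to 0.67), or for the 616 hotspots of highest value, at 0.38 (0.03 to 0.64). It did for the 962 of highest value, at 0.34 (−0.01 to 0.61), and for Pearson's r, 0.22 (−0.14 to 0.52). The TAC-1 interval included 0 for the 308 TAC-1 hotspots of highest value, at 0.28 (−0.07 to 0.57). It did not without Y, at 0.61 (0.32 to 0.79), or for Pearson's r, 0.58 (0.29 to 0.77). Hotspots per Mb went the other way, with a rho of −0.51 (−0.73 to −0.19) in RT-52 and −0.37 (−0.64 to −0.02) in TAC-1. Without Y the rho was −0.49 (−0.72 to −0.16) in RT-52 and −0.34 (−0.62 to 0.01) in TAC-1, an interval that reached 0, as did that of Pearson's r over all chromosomes in TAC-1, −0.35 (−0.62 to 0.001286). Chromosome lengths left a gap between 52.5 and 62.9 Mb, and at a split placed there after the values were seen, the 13 shorter chromosomes had 1.22 (1.13 to 1.31) RT-52 hotspots per Mb against 0.695 (0.655 to 0.736) on the 19 longer ones. For TAC-1 these densities were 0.327 (0.283 to 0.376) and 0.244 (0.220 to 0.269). The shorter chromosomes were thus denser in both fish, with intervals that did not overlap. Without chromosome Y, the shorter chromosomes still had 1.11 (1.02 to 1.199) and 0.315 (0.271 to 0.366) hotspots per Mb.

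The same chromosomes tended to be dense in both lists. Hotspots per Mb of RT-52 and TAC-1 had a rho of 0.71 (0.48 to 0.85, n = 32) over chromosomes, and of 0.68 (0.43 to 0.84, n = 31) without Y. With the hotspots common to both lists taken out, rho was 0.48 (0.16 to 0.71). Chromosomes share their length and gene content between the lists, so that this is a description of the genome as well as of the fish. Chromosome counts had the larger spread in RT-52, by a measure given here without an interval. The coefficient of variation around the count expected from length, after removal of counting error, was 0.382 in RT-52 and 0.215 in TAC-1. It was 0.313 and 0.205 without Y, and 0.520 for the 616 RT-52 hotspots of highest value, where only RT-52 was cut by value. Whether the fish differ in this spread was not tested.

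Chromosome Y had 119 RT-52 hotspots, or 2.50 per Mb (2.07 to 2.99), and 22 TAC-1 hotspots, or 0.461 per Mb (0.289 to 0.699). In RT-52 the next densest were chromosomes 20, with 1.74 (1.38 to 2.16), and 22, with 1.64 (1.31 to 2.02). The interval of Y overlapped that of chromosome 20 by a small margin and not that of 22. In TAC-1 they were chromosomes 22, with 0.419 (0.263 to 0.635), and 2, with 0.414 (0.300 to 0.558), and these intervals contained the density of Y, which therefore did not stand apart in TAC-1. The sparsest chromosome was 13 in both lists, with 0.368 (0.243 to 0.536) RT-52 and 0.109 (0.047 to 0.215) TAC-1 hotspots per Mb. It was the only chromosome without a hotspot common to both, at 0 of 27 RT-52 and 0 of 8 TAC-1 hotspots. Over the whole lists 8.78% and 27.3% were common, and whether chromosome 13 differs from these shares was not tested. Chromosomes 12, with 0.486, and 6, with 0.505, came next in RT-52. In TAC-1, chromosomes 23, with 0.127, and 6, with 0.158, came next. The 3 sparsest chromosomes of a list had overlapping intervals.

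The ratio of RT-52 to TAC-1 hotspots was highest on Y, which had 5.41 RT-52 hotspots for each TAC-1 hotspot (3.41 to 8.96), compared with 3.14 over all chromosomes. The lowest ratios were 1.75 (0.915 to 3.46) on chromosome 14, 1.81 (1.11 to 3.02) on chromosome 10 and 1.89 (1.04 to 3.55) on chromosome 28. The intervals of 2 of the 32 chromosomes, Y and 10, left out the overall ratio, about as many as the 1.6 that 95% intervals leave out on average when the ratio is the same everywhere.

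**Figure D1:**
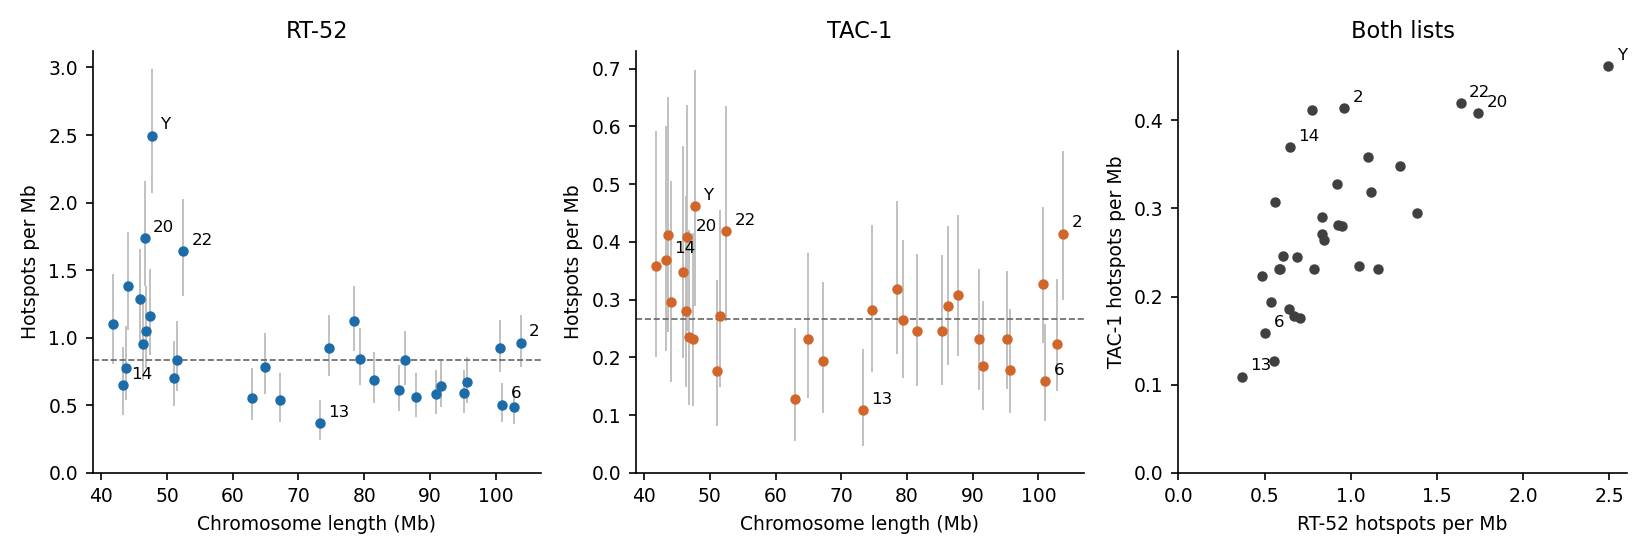
Hotspots per Mb against chromosome length in Mb for RT-52 (left, blue) and TAC-1 (middle, orange), and TAC-1 against RT-52 density (right). Each point is 1 of 32 chromosomes, bars are 95% exact Poisson intervals, the dashed line is the density over all chromosomes, and chromosomes 2, 6, 13, 14, 20, 22 and Y are labelled. Y has the highest point in every panel, at 2.50 RT-52 and 0.461 TAC-1 hotspots per Mb.

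Hotspots of both fish gathered towards the chromosome ends, where neighbours were also closer than further inside, as given below. The part of the chromosome length near the ends is not given here, so that the shares near an end do not measure this by themselves. The median distance to the nearer end was 5.89 Mb (5.65 to 6.28) in RT-52 and 5.71 Mb (5.28 to 6.14) in TAC-1. Within 5 Mb of an end lay 40.9% (38.7 to 43.1) and 43.4% (39.4 to 47.4), and within 10 Mb 76.0% (74.0 to 77.9) of RT-52 and 76.1% (72.5 to 79.4) of TAC-1 hotspots, shares that did not differ beyond their intervals. Further than 5 Mb inside, hotspots per Mb had a rho with chromosome length of −0.64 (−0.81 to −0.38) in RT-52 and −0.38 (−0.64 to −0.03) in TAC-1. Further than 10 Mb inside, rho was −0.56 (−0.76 to −0.26) and 0.24 (−0.12 to 0.54), so that the sign in TAC-1 depended on where the interior began. Often 1 end dominated. The side of the chromosome midpoint with more hotspots was the same in both lists for 26 of 32 chromosomes, and the share of hotspots before the midpoint had a rho of 0.75 (0.54 to 0.87) between lists. On chromosome 32, 45 of 46 RT-52 and 14 of 15 TAC-1 hotspots lay before the midpoint. On chromosome 4, the stretch before the midpoint held 2 of 49 and 1 of 11. Chromosome 24 differed more, with 22 of 59 RT-52 and 0 of 16 TAC-1 hotspots before its midpoint.

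The interior hotspots of the lists differed in their shares by chromosome length. On the 13 chromosomes under 55 Mb, 195 of 741 RT-52 hotspots were further than 10 Mb from both ends (26.3%, 23.3 to 29.6), compared with 27 of 199 TAC-1 hotspots (13.6%, 9.49 to 19.0). On the 19 longer chromosomes the order was the opposite, with 253 of 1128 RT-52 hotspots (22.4%, 20.1 to 24.95) and 115 of 396 TAC-1 hotspots (29.04%, 24.8 to 33.7). The pair of intervals overlapped by a small margin on the longer chromosomes and not on the shorter ones. Without Y, the shares on the shorter chromosomes were 23.8% (20.6 to 27.3) and 14.1% (9.75 to 20.02). Among the 616 RT-52 hotspots of highest value, 8.52% (6.04 to 11.9) were interior on the longer chromosomes and 12.5% (8.55 to 17.9) on the shorter ones without Y. The difference from TAC-1 was then larger on the longer chromosomes, and on the shorter ones it was within the intervals. Only RT-52 was cut here, and the cut by itself lowers its interior share, so that these shares do not compare the fish. The reason is that interior hotspots were of lower rank in both lists. The rank percentile is the position of a value in its list, from the lowest, in percent, with tied values given their average rank. For interior hotspots its median was 31.7 (28.0 to 35.4) in RT-52 and 36.3 (30.2 to 44.6) in TAC-1, compared with 56.8 (54.5 to 59.0) and 54.6 (48.9 to 58.4) near the ends.

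The interior of chromosome Y held more RT-52 hotspots than that of any other chromosome. There were 47, against 31 on chromosome 2, the next highest, whereas TAC-1 had 2 on Y and 13 on chromosome 2. None of the 47 was common with TAC-1, which allows a share of up to 6.38% by the limit of 3 counts and 7.56% by the Wilson interval, and with 2 TAC-1 hotspots in that region few could have been. The share common with TAC-1 over interior RT-52 hotspots, given below, was within both limits. Over all RT-52 hotspots it was 8.78%, above them. None of the 47 coincided with a TAC-3 hotspot either, but only 44 of all 1924 RT-52 hotspots did (2.29%, 1.71 to 3.06), so that 0 of 47 was within counting error of the whole list. Their median rank percentile was 48.8 (39.0 to 74.2), above that of RT-52 interior hotspots in general, and 19 of them were among the 616 RT-52 hotspots of highest value. TAC-1 H3K4me3 peaks lay at 15 of 47 (31.9%, 20.4 to 46.2) and TAC-3 H3K4me3 peaks at 16 of 47 (34.0%, 22.2 to 48.3). The TAC-1 share did not differ beyond its interval from the 27.5% over all RT-52 hotspots or the 36.2% over interior ones. Nor did the TAC-3 share differ beyond its interval from that over all unshared RT-52 hotspots, given below. The longest stretch of Y without an RT-52 hotspot was 5.86 Mb, the shortest such maximum of all chromosomes. RT-52 had more interior hotspots than TAC-1 on 29 chromosomes and the same number, 4, on chromosome 14. The exceptions were chromosomes 10, with 7 RT-52 and 12 TAC-1 hotspots, and 12, with 8 and 12. Of these TAC-1 hotspots, 1 of 12 and 2 of 12 coincided with a TAC-3 hotspot, counts too small to tell from the share over all interior TAC-1 hotspots given below.

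**Figure D2:**
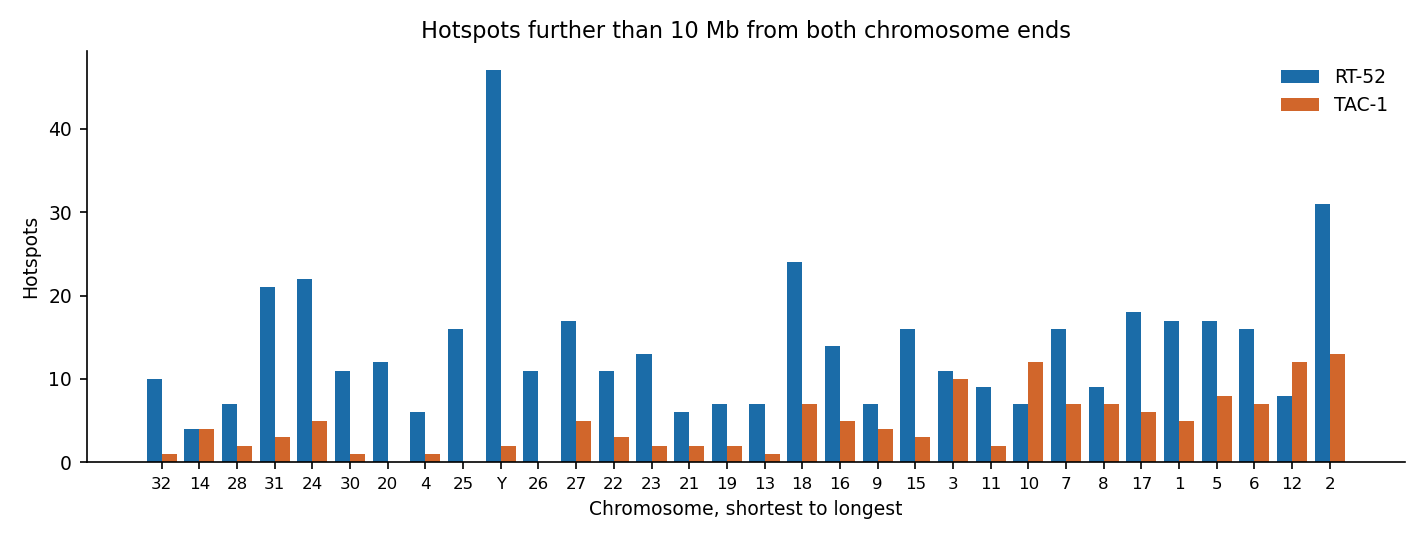
Number of hotspots further than 10 Mb from both ends on each of the 32 chromosomes, ordered from the shortest to the longest, for RT-52 (blue bars) and TAC-1 (orange bars). The RT-52 bar of chromosome Y reaches 47 and its TAC-1 bar 2, whereas on chromosomes 10 and 12 the TAC-1 bars, at 12 each, are above the RT-52 bars.

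Neighbouring hotspots were closer in RT-52. The median distance between the centres of neighbours was 271 kb (249 to 294, n = 1837) in RT-52 and 1024 kb (877 to 1207, n = 563) in TAC-1. The medians differed by 3.78 times and the means, 1161 and 3702 kb, by 3.19 times. With the RT-52 list reduced to its 616 hotspots of highest value, the median was 551 kb (480 to 636), still below that of TAC-1. Of these RT-52 hotspots, 51.9% lay within 5 Mb of an end, compared with 40.9% of the whole list. The part of this in the closer spacing was not tested.

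Both lists were clustered. For points placed at random with an even density the median spacing would be 0.693 of the mean, whereas it was 0.233 of the mean in RT-52 and 0.277 in TAC-1. The SD of the spacing was 3.15 and 2.05 times its mean. Ends and interiors differed. Within 10 Mb of an end the median spacing was 218 kb (197 to 234) in RT-52 and 706 kb (615 to 845) in TAC-1, and further inside 1056 kb (794 to 1300) and 6370 kb (3275 to 9412). Near the ends, the SD was 1.01 times the mean in TAC-1, the ratio of an even random scatter, but 1.37 times in RT-52. Gaps over 5 Mb numbered 86 in RT-52 and 91 in TAC-1 and covered 55.4% and 70.9% of the chromosome length. Such hotspot-poor stretches were thus similar in number although the lists differed in length by a factor of 3.12. The longest gap was 43.8 Mb in RT-52, on chromosome 12, and 64.6 Mb in TAC-1, on chromosome 2.

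**Figure D3:**
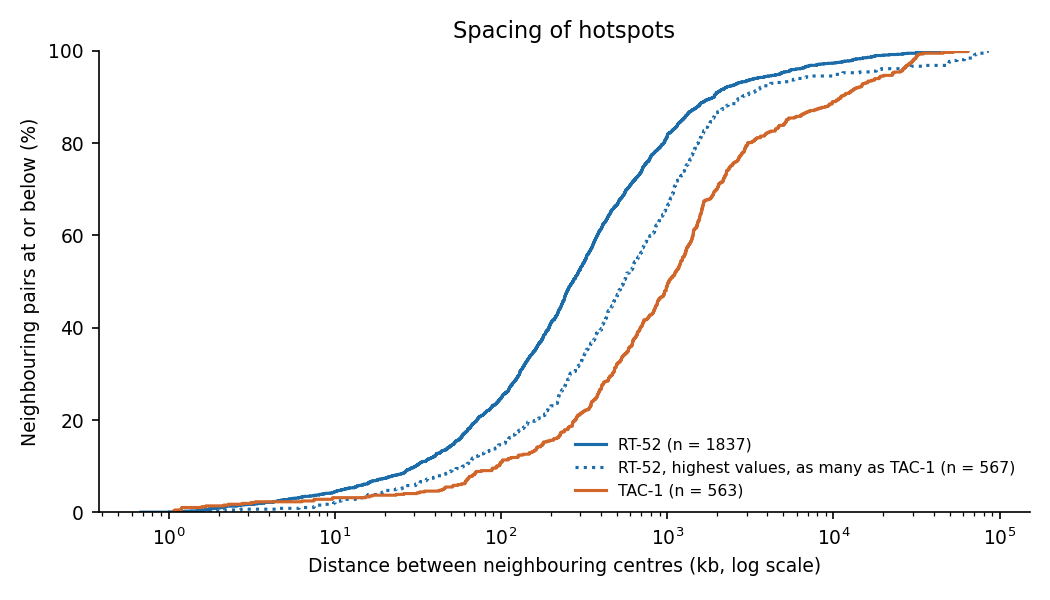
Cumulative percentage of neighbouring hotspot pairs (vertical axis) whose centres lie at or below the distance on the horizontal axis, in kb on a log scale, for RT-52 (blue), TAC-1 (orange) and the RT-52 hotspots of highest value in a list as long as that of TAC-1 (dotted). The curves cross 50% at 271, 1024 and 551 kb.

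At the smallest scale, 11 pairs of RT-52 neighbours and 6 pairs of TAC-1 neighbours overlapped each other. The closest RT-52 pair lay on chromosome 1 in *plcxd1*, a gene of the phospholipase C family, with centres 683 bp apart, at 670599 to 672430 with a value of 160 and at 671501 to 672894 with a value of −180. The closest TAC-1 pair lay on chromosome 31 in LOC110505189, with centres 1073 bp apart, at 41404832 to 41407327 with a value of 35 and at 41406701 to 41407604 with a value of 4. In such pairs the lower value was in the lowest 10% of its list in 9 of 11 RT-52 and 6 of 6 TAC-1 cases, and the 3 RT-52 hotspots with a value below 0 were all of this kind. Values of hotspots that overlap a neighbour were therefore read with reserve.

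In bins of 1 Mb, hotspot counts of the fish followed each other, also without the common hotspots. Of 2247 bins of 1 Mb, 1350 had no hotspot of either fish. TAC-1 had 0.0862 hotspots per bin where RT-52 had 0, 0.287 where it had 1, 0.503 where it had 2 and 1.31 where it had 5 or more. Counts per bin had a rho of 0.47 between lists, and 0.33 without the common hotspots. In 112 bins TAC-1 had a hotspot and RT-52 had none. Both lists gathered towards the ends and on the same chromosomes, and the part of this in the counts per bin was not tested.

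Hotspots of RT-52 were slightly wider in the full lists. The median width was 1836 bp (1806 to 1866) in RT-52 and 1735 bp (1664 to 1796) in TAC-1, with intervals that did not overlap. Without the TAC-1 hotspots that overlapped a TAC-3 hotspot, the TAC-1 median was 1760 bp (1712 to 1834), and the intervals then overlapped. The range was 868 to 7132 bp in RT-52 and 806 to 5372 bp in TAC-1. Width went with rank in both lists, with a rho between width and value of 0.55 (0.51 to 0.58) in RT-52 and 0.39 (0.32 to 0.46) in TAC-1. With each list split into 4 classes of equal size, from the lowest to the highest value, median widths were 1526, 1678, 1922 and 2422 bp in RT-52 and 1540, 1724, 1846 and 2057 bp in TAC-1. The lists did not differ beyond the intervals in their lowest classes, at 1526 (1506 to 1552) and 1540 bp (1516 to 1576), and did in their highest, at 2422 (2338 to 2500) and 2057 bp (1916 to 2286). The 616 RT-52 hotspots of highest value had a median width of 2353 bp (2278 to 2426). Only RT-52 was cut by value there, and width went with value, so that this width does not compare the fish.

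A minority of the hotspots of each list was common to both fish. The authors, who reported a nearly equal overlap of these lists, called it substantial. A share expected for randomly placed hotspots is not given here, so that the shares below do not measure enrichment. When the central 400 bp of hotspots were compared, 169 of 1924 RT-52 hotspots overlapped a TAC-1 hotspot, or 8.78% (7.60 to 10.1), and 168 of 616 TAC-1 hotspots overlapped an RT-52 hotspot, or 27.3% (23.9 to 30.9). They formed 169 pairs, on 31 chromosomes and 1 unplaced scaffold. In the single case of multiple overlap, both members of the overlapping RT-52 pair in *plcxd1* met 1 TAC-1 hotspot, at 670654 to 672981 of chromosome 1 with a value of 170. With the lists cut to the same length, 19.0% (16.1 to 22.3) of hotspots were common.

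Sharing went with rank in both lists. With each list split into 10 classes of equal size by value, the shared percentage of RT-52 was 2.59 (1.11 to 5.92) in the lowest class, 5.73 (3.23 to 9.97) in class 5 and 25.9 (20.2 to 32.5) in the highest. In TAC-1 it was 11.3 (5.58 to 21.5) in the lowest class, 51.6 (39.4 to 63.6) in class 8, and then 31.1 (20.9 to 43.6) and 32.3 (21.95 to 44.6) in the highest 2 classes. The share in TAC-1 was therefore lower in the highest 2 classes than in class 8, but the intervals of these 3 classes overlapped, so that their order was not resolved. Peaks that coincided with a TAC-3 hotspot were kept in these classes, and their part in the shares was not tested. Among the top 20 hotspots of each list, 6 were shared in RT-52 and 6 in TAC-1, beside 8.78% and 27.3% of the whole lists.

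Hotspots that were not shared did not lie just outside the window. The nearest RT-52 centre was within 100 bp for 98 TAC-1 hotspots, between 100 and 200 bp for 39 and between 200 and 400 bp for 30, whereas it was between 400 and 1000 bp for 7. For an unshared TAC-1 hotspot the median distance to the nearest RT-52 hotspot was 178 kb (153 to 222). The split into shared and unshared hotspots was thus sharp, as is seen from the near absence of centres 400 to 1000 bp apart.

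Shared hotspots carried TAC-1 H3K4me3 more often than others in both lists. Peaks of this mark covered 4.71% of the chromosomes and met the central 400 bp of 27.5% of all RT-52 and 36.2% of all TAC-1 hotspots. At shared RT-52 hotspots the share was 99 of 169 (58.6%, 51.0 to 65.7), compared with 430 of 1755 at unshared ones (24.5%, 22.5 to 26.6). At shared TAC-1 hotspots it was 99 of 168 (58.9%, 51.4 to 66.1), compared with 124 of 448 (27.7%, 23.7 to 31.998). For H3K36me3, the shares over all hotspots were 18.6% in RT-52 and 21.1% in TAC-1. The part of the chromosomes that its peaks covered is not given here. The authors described much H3K36me3 that does not depend on PRDM9 at some RT-52 hotspots, and its part in these shares was not tested. Shared and unshared hotspots had 31.95% (25.4 to 39.3) and 17.3% (15.6 to 19.2) in RT-52, and 31.5% (25 to 38.9) and 17.2% (13.98 to 20.96) in TAC-1. Both marks were thus more frequent at shared positions by more than the intervals, and 52 of 169 pairs had both, while 69 had neither.

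At RT-52 hotspots, the H3K4me3 peaks of TAC-3, which shares allele 2 with RT-52 and no allele with TAC-1, were distributed the other way. The part of the chromosomes that these peaks covered is not given here. Shares for TAC-3 H3K36me3 are not stated in the text. For this mark, the authors could not conclude that RT-52 hotspots carry it from either TAC-1 or TAC-3 but not both. Their reason was the H3K36me3 that does not depend on PRDM9. A TAC-3 H3K4me3 peak lay at 1 of 169 shared RT-52 hotspots (0.592%, 0.105 to 3.28) and at 440 of 1755 unshared ones (25.1%, 23.1 to 27.2). At TAC-1 hotspots these peaks were rare whether shared, 1 of 168, or not, 12 of 448 (2.68%, 1.54 to 4.62). Sorted by mark, the RT-52 hotspots with TAC-1 but no TAC-3 H3K4me3 were shared with TAC-1 in 98 of 478 cases (20.5%, 17.1 to 24.3), those with TAC-3 H3K4me3 in 1 of 441 (0.227%, 0.040 to 1.27) and those with neither in 70 of 1005 (6.97%, 5.55 to 8.71). The 3 intervals did not overlap. Even among RT-52 hotspots with TAC-1 H3K4me3, most had no TAC-1 hotspot in the list.

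**Figure D4:**
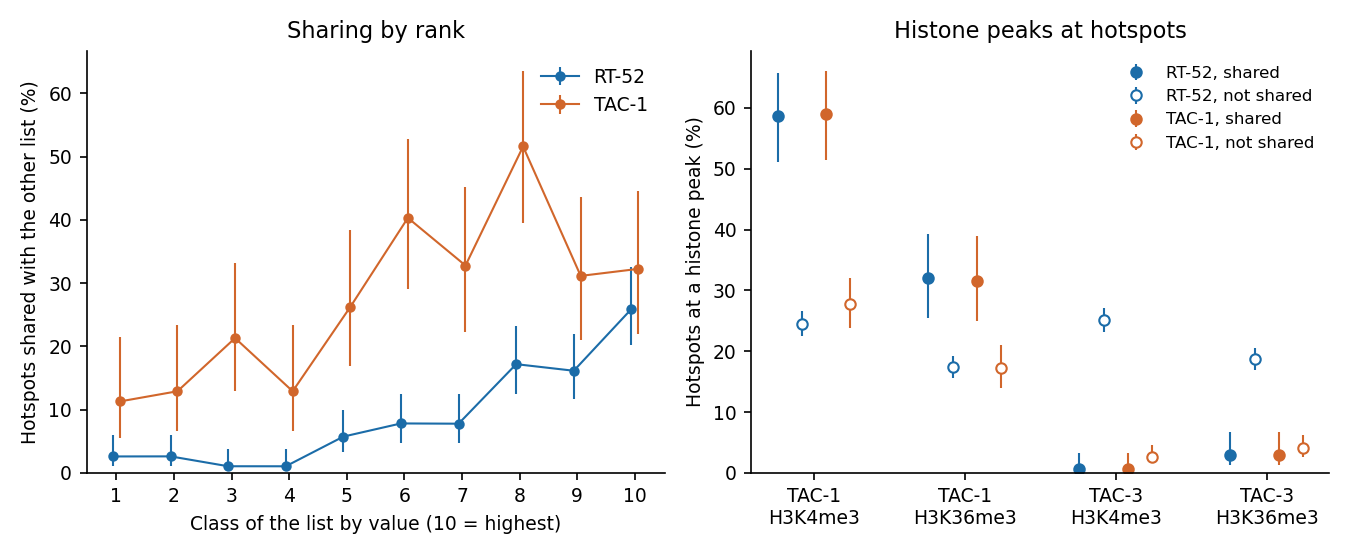
Left, percentage of hotspots shared with the other list in 10 classes of each list, from the lowest to the highest value, for RT-52 (blue) and TAC-1 (orange). Right, percentage of shared (filled) and unshared (open) hotspots of each list with a histone peak of TAC-1 or TAC-3 in their central 400 bp. Bars are 95% Wilson intervals. RT-52 sharing ends at 25.9% in the highest class, and TAC-1 H3K4me3 is at 58.6% of shared and 24.5% of unshared RT-52 hotspots.

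The mark also separated interior hotspots of the lists. Near the ends, TAC-1 H3K4me3 was present at 25.1% (22.9 to 27.4) of RT-52 and 43.3% (38.8 to 47.9) of TAC-1 hotspots. Further than 10 Mb inside, the order was the opposite, at 36.2% (31.8 to 40.7) of RT-52 and 17.6% (12.2 to 24.7) of TAC-1 hotspots. Interior hotspots were also less often shared, at 5.13% (3.45 to 7.59) against 10.2% (8.74 to 11.9) near the ends in RT-52, and 16.2% (11.04 to 23.1) against 31.8% (27.7 to 36.2) in TAC-1. In TAC-1, 23 of 142 interior hotspots (16.2%, 11.04 to 23.1) coincided with a TAC-3 hotspot, compared with 28 of 453 near the ends (6.18%, 4.31 to 8.79). Their part in the lower H3K4me3 share was not tested.

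At shared hotspots, values were correlated but far from interchangeable. Values are comparable only within a list, and ranks gave a rho of 0.48 (0.35 to 0.59) over the 169 pairs, or 0.50 without the pair that held the value of −180. In 4 classes of pairs from the lowest to the highest RT-52 value, the median TAC-1 rank percentile was 44.6 (25.3 to 52.9), 57.1 (45.6 to 72.9), 69.6 (63.6 to 74.9) and 78.5 (70.6 to 85.6). The rank percentiles of a pair lay within 10 points of each other in 52 pairs and within 25 points in 103. Shared hotspots ranked high in both lists, at a median percentile of 79.3 (75 to 83.2) in RT-52 and 63.6 (57.5 to 70.6) in TAC-1. Where both hotspots had TAC-1 H3K4me3 rho was 0.55 (0.39 to 0.67, n = 99), and where they had none 0.41 (0.19 to 0.59, n = 70), values whose intervals overlapped.

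The centres of shared hotspots lay close together. The median offset was 84 bp (67 to 98), 98 of 169 pairs (58.0%, 50.5 to 65.2) were within 100 bp and 137 (81.1%, 74.5 to 86.3) within 200 bp. There was no shift to 1 side, with a median signed offset of −3 bp (−20 to 20) for RT-52 minus TAC-1, 82 pairs to the right and 85 to the left. The offset had little relation to value, with a rho of −0.09 for RT-52 and −0.06 for TAC-1. By rule an offset is below 400 bp, so its size was read against other pairs of lists compared the same way. RT-52 and TAC-3, which share allele 2, had 44 pairs with a median offset of 83 bp (36 to 124), a value correlation of 0.55 (0.30 to 0.72) and a width correlation of 0.24 (−0.06 to 0.50). TAC-1 and TAC-3, with no allele in common, had 57 pairs with a median offset of 16 bp (2 to 34), a value correlation of 0.74 (0.59 to 0.84) and a width correlation of 0.71 (0.55 to 0.82). Peaks common to TAC-1 and TAC-3 thus matched more closely in centre and width than those of either pair of fish with a common allele, by more than the intervals, whereas the intervals of the value correlations overlapped. Strand asymmetry, by which DMC1 hotspots are recognised, was not analysed here, so that whether the peaks common to these fish are DSB hotspots was not tested here. The authors of the study did examine it. They reported that peaks common to TAC-1 and TAC-3 lacked the asymmetric strand pattern, unlike those that either fish shared with RT-52. For this reason they regarded them as possibly artefactual. Only 2 of the 169 RT-52 and TAC-1 pairs included a TAC-3 hotspot. In the whole TAC-1 list, however, 57 hotspots overlapped a TAC-3 hotspot, and these stayed in the comparisons of full lists. Without them, the part of the TAC-1 list in common with RT-52 was 29.7%, against 27.3% with them. TAC-1 H3K4me3 was then at 30.5% of unshared TAC-1 hotspots, against 27.7%. Both changes stayed within the intervals of the values for the full list.

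Widths of a pair were weakly related. Their rho was 0.22 (0.08 to 0.36), an interval that overlapped that of the values by a small margin, and median widths were 2310 bp (2138 to 2508) in RT-52 and 1912 bp (1814 to 2026) in TAC-1. The RT-52 member was wider in 107 pairs (63.3%, 55.8 to 70.2), the TAC-1 member in 59, and 3 pairs had the same width. The median difference was 250 bp (76 to 372), with an SD of 996 bp, so that single pairs varied widely around it. It went with the difference in rank percentile, with a rho of 0.45, the member of higher relative value being the wider one on the whole. In both lists shared hotspots were wider than unshared ones, by 2310 against 1806 bp (1770 to 1840) in RT-52 and by 1912 against 1650 bp (1606 to 1724) in TAC-1. Within a class by value the contrast was smaller, for example 2532 bp (2336 to 2716) against 2402 bp (2312 to 2468) in the highest of 4 classes of RT-52, where the intervals overlapped.

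**Figure D5:**
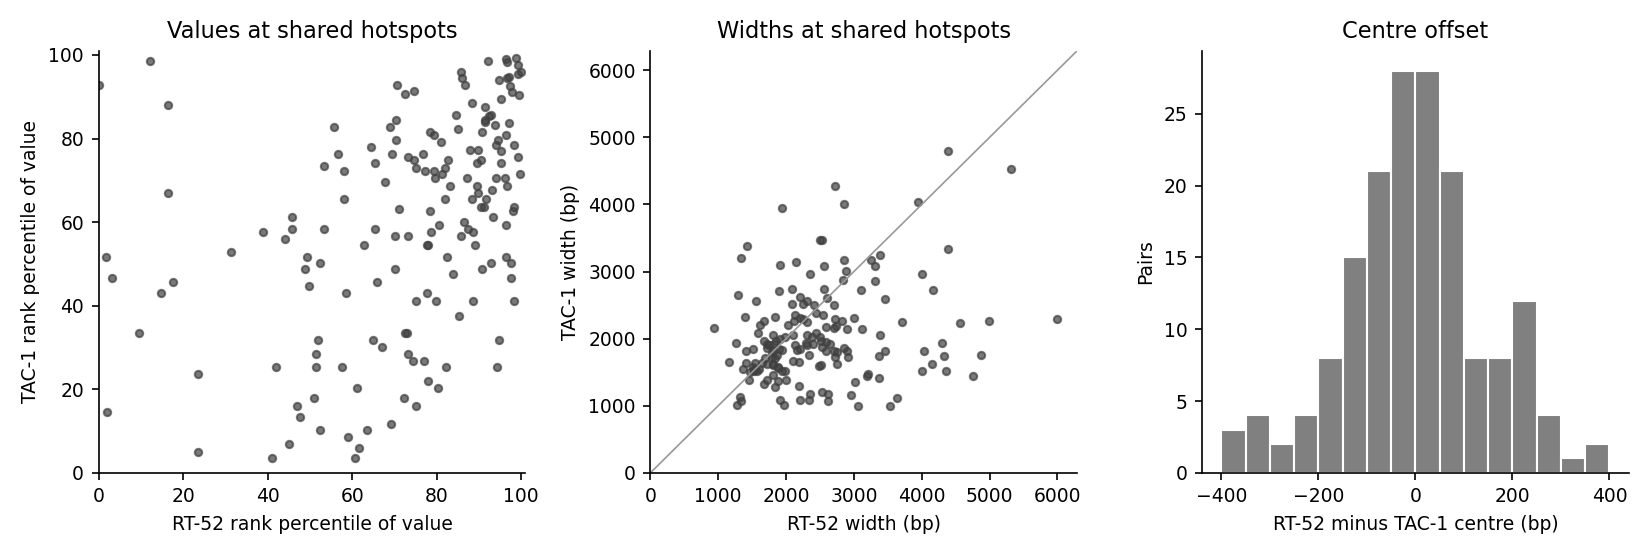
The 169 pairs of overlapping RT-52 and TAC-1 hotspots. Left, rank percentile of the value in TAC-1 against that in RT-52. Middle, width in bp in TAC-1 against RT-52, with the line of equal width. Right, number of pairs by the signed distance between centres in bp, RT-52 minus TAC-1. Ranks follow each other (rho 0.48), more points lie below the line of equal width (107) than above it (59), and offsets are spread evenly around 0.

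Of the 10 pairs of highest mean rank, 6 lay in an annotated gene, and 59.5% of all shared RT-52 hotspots did. Within 10 Mb of a chromosome end lay the 9 that were placed on a chromosome, 5 of them within 5 Mb, beside 76.0% and 40.9% of all RT-52 hotspots. First was a pair in *psmd8*, which encodes a subunit of the proteasome, on chromosome 24 at 38983448 to 38988761 in RT-52 and 38983746 to 38988273 in TAC-1. Its values of 1136 and 419 were rank 23 and rank 5, its centres were 95 bp apart and both TAC-1 marks were present. Second was a pair in LOC110515405 on chromosome 2 at 1615535 to 1617910 and 1615721 to 1617746, of rank 16 and rank 15, with centres 11 bp apart and H3K4me3 alone.

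Next was the pair with the RT-52 hotspot of highest value, 2872. It lay in LOC110498800 on chromosome 20 at 1361419 to 1363776, and its TAC-1 partner at 1361251 to 1364214 had a value of 218 and rank 26. The RT-52 member was the narrower, 2358 against 2964 bp, although first in its list. Another 2 pairs of chromosome 20 were among the 10, in LOC110498908, of rank 14 and rank 28 with centres 20 bp apart, and in the pseudogene LOC110498726, of rank 153 and rank 9.

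The others lay on chromosome 22 in *gpr161a*, which encodes a ciliary receptor that in mammals restrains Hedgehog signalling (rank 66 and 11), on chromosome 14 at 5138 bp from LOC110513519 (rank 58 and 32), on chromosome 15 at 15704 bp from *zic1*, a zinc finger transcription factor of neural development (rank 65 and 34), on chromosome 28 at 5299 bp from LOC110509161 (rank 51 and 46) and on an unplaced scaffold (rank 72 and 7). Of the 10, 7 had TAC-1 H3K4me3, 4 had H3K36me3 and 4 were wider in RT-52. Over all 169 pairs, the RT-52 hotspot had TAC-1 H3K4me3 in 58.6% and was the wider one in 63.3%. The share of shared hotspots with H3K36me3 is given above. Whether the 10 pairs differ from these shares was not tested. The RT-52 hotspot in *gpr161a* overlapped an RT-52 neighbour with a value of 6, so that its value and width are read with reserve. The unplaced pair had the largest offset of all pairs, 387 bp.

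Some pairs were strong in 1 fish and weak in the other. On chromosome 31, in *pld7*, of the phospholipase D family, at 5731114 to 5735437 in RT-52 and 5732301 to 5734042 in TAC-1, the rank percentile was 94.2 in RT-52 and 25.3 in TAC-1. The RT-52 peak was 4324 bp wide and the TAC-1 peak 1742 bp, with centres 104 bp apart. Next came a pair on chromosome 8 in LOC110531046, at percentiles 94.8 and 31.8, and a pair on chromosome 20 at 55352 bp from LOC118942017, at 80.2 and 20.2. All 3 had TAC-1 H3K4me3, as had 58.6% of all shared RT-52 hotspots, and 3 pairs are too few to set apart from that share.

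In the opposite direction, the most unequal pair was that of the −180 value in *plcxd1*, with an offset of 380 bp, where the overlapping RT-52 neighbour had a value of 160 and a percentile of 70.7. The next lay on chromosome 11 at 12268 bp from LOC110536534, at percentiles 12.0 in RT-52 and 98.5 in TAC-1, with widths of 1342 and 3206 bp and centres 76 bp apart. The third was in *tiam1a*, a Rac guanine nucleotide exchange factor, on chromosome Y at 43153809 to 43155714 in RT-52 and 43153595 to 43156696 in TAC-1, at percentiles 16.3 and 88.1. Its offset of 384 bp was the second largest of all pairs, and that in *plcxd1* the third.

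Peaks of high value without a partner occurred in both lists. In RT-52 they were a hotspot of rank 2 in *bcl6aa*, related to the mammalian transcriptional repressor BCL6, on chromosome 1 at 3623088 to 3625947, 1 of rank 3 in LOC118939596 on chromosome 16 at 75981024 to 75984283 and 1 of rank 4 in LOC110513755 on chromosome 10 at 85724964 to 85727977. Their values were 2523, 2311 and 2104. None had a TAC-1 mark, those of chromosomes 1 and 10 coincided with a TAC-3 hotspot, and that of chromosome 10 had a TAC-3 H3K4me3 peak. The nearest TAC-1 hotspots were 98.3, 474 and 8.71 kb away.

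In TAC-1 the first was a hotspot in LOC110508036 on chromosome 27 at 40361001 to 40361812, with a value of 1691. It was 812 bp wide, near the narrowest of its list, coincided with a TAC-3 hotspot and had no H3K4me3 or H3K36me3 peak of either fish. The second, in LOC110528239 on chromosome 7 at 64674222 to 64675625 with a value of 855 and a width of 1404 bp, likewise coincided with a TAC-3 hotspot and had no mark. Both thus belong to the peaks common to TAC-1 and TAC-3 whose nature was not tested here, and the authors' doubt, based on strand pattern, applies to them. The third, with a value of 650 and a width of 3346 bp, lay on chromosome 14 at 31923127 to 31926472, 19932 bp from the lncRNA gene LOC118938723, with no TAC-3 hotspot and no mark. These 3 TAC-1 peaks lay 11.2, 26.2 and 11.4 Mb from the nearer end, and the 3 of RT-52 3.62, 2.53 and 2.08 Mb from it.

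Position relative to genes differed little. Genes of the RefSeq table covered 57.6% of the chromosome length, and hotspot centres were inside a gene for 62.5% (60.3 to 64.7) of RT-52 and 56.8% (52.8 to 60.7) of TAC-1 hotspots. Of shared hotspots, 59.5% (52.0 to 66.7) of RT-52 and 58.7% (51.1 to 65.9) of TAC-1 were in genes. RT-52 hotspots were therefore in genes more often than the length covered, and TAC-1 hotspots were not distinguishable from it.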

How the data were processed

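Per the labels and the methods, the authors mapped DMC1-SSDS reads to USDA_OmykA_1.1 with BWA 0.7.17-r1188, called peaks with MACS2 2.2.7.1, selected pooled-data peaks by irreproducible discovery rate (IDR), using replicates and pseudo-replicates, and recentred them. The deposited DMC1 lists hold the position and 1 whole-number score per hotspot, here called its value. The lists do not name it, so that it was ranked within a list only. Histone peaks were called by the authors in each replicate, merged within 1 kb and kept where found in both. The deposited score of a histone peak served only to select peaks. The lists give no read depth, and the numbers of mapped reads that the study reports were not used here. Precision is therefore known only as counting error over hotspots.

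Hotspots were compared over their central 400 bp, with at least 1 bp in common, and with full histone peaks, using Python 3.11.15, numpy 2.4.6, pandas 2.3.3 and SciPy 1.17.1. Overlaps were checked against bedtools 2.31.1 and on simulated lists. Chromosome ends were 5 Mb in the main analysis and also 2 and 10 Mb. Named sites were the 10 pairs of highest mean rank, the 3 most unequal pairs in each direction, the 3 largest offsets, the 3 highest unshared hotspots per list, multiple overlaps, the closest neighbours and the 3 densest and sparsest chromosomes, with the nearest gene. The members, lists and rules were chosen with earlier results of these data known, and the splits at 55 Mb and 10 Mb inside, the bins and the value classes after the values were seen. No genome sequence was used here.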

Additional observations from a re-analysis of the deposited data

How the results depend on the processing

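Of 148 values recomputed over 23 alternatives, 2 of them chosen after the data were seen, 109 stayed within the interval of the reported value, 38 moved outside it and 1 changed sign. The sign change was that of TAC-1 interior density against chromosome length, at a rho of 0.24 with ends of 10 Mb in place of 5 Mb; the cause was not tested. With ends of 2 Mb and 10 Mb, the share near an end was 15.1% and 76.0% in RT-52 and 16.1% and 76.1% in TAC-1.

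In the upper 50% of each list by value, RT-52 and TAC-1 spacing was 402.5 and 1573 kb, width 2180 and 1961 bp and the share common 10.8% and 33.8%, the RT-52 distance to the end was 5.14 Mb with 48.5% near an end, and rho of values was 0.29. With RT-52 cut to the length of TAC-1, RT-52 spacing was 551 kb, width 2353 bp, distance to the end 4.83 Mb and the share near an end 51.9%, the share common was 19.0% in each list and rho of values was 0.34. In that list the interior share on shorter chromosomes no longer differed from TAC-1 beyond the intervals. RT-52 alone was cut by value, which by itself favours wide hotspots and those near the ends. Fewer hotspots enter both of these alternatives. Kendall's tau of values was 0.34. With 200 bp in common required, 7.12% and 22.2% were shared and the offset was 64 bp. Mean widths were 2059 and 1959 bp, with a mean paired difference of 410.2 bp.

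TAC-1 H3K4me3 at shared and unshared hotspots was 76.9% and 38.3% in RT-52 and 76.8% and 41.1% in TAC-1 over full hotspots, 40.2%, 16.4%, 41.7% and 21.9% with as many TAC-1 as TAC-3 peaks, and 50.3% and 20.8% in RT-52 and 23.0% at unshared TAC-1 hotspots in the upper 50% of the histone list. Shared hotspots had the higher share in each case.

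No paired analysis was possible because the lists merge both replicates, and for the same reason no replicate was left out. The main limit is 1 fish per genotype, with stage and antibody differing between them.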
